A study of Mus musculus with 9 samples.

Results

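A set of 9 transcription factor genes that mark the ventral telencephalon was followed in dorsal telencephalon RNA of newborn mice. They are Gsx1, Gsx2, Nkx2-1, Lhx8, Isl1, Ebf1, Ikzf1, Six3 and Zfp503, chosen by symbol as factors of the ganglionic eminences, striatum and septum, and all 9 were found among the 41128 genes of the count table. They were proposed with genotype differences of these same libraries already known, so their differences between genotypes are given here as values, without p-values. The gene lists set beside them below were also chosen with earlier results of these data known. Adjusted p-values and passing counts of listed genes therefore describe these libraries only and do not come from an independent choice of genes. The tissue was taken at postnatal day 0 from mice of the strain B6:129SF2/J, and 3 libraries each carried the genotype labels TCF4 knockout (KO), TCF4 heterozygote (Het) and wildtype (WT). No other allele or agent is labelled in any group, and the sources used here do not state which part of Tcf4 was removed. Whether a library holds 1 pup or several, and from which litters, is not labelled, so the spread between libraries may be partly technical.

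The embryonic telencephalon is divided into a dorsal part, which forms the cortex and hippocampus, and ventral swellings called ganglionic eminences, which form the striatum, the basal forebrain and most GABAergic interneurons. Gsx2 and Gsx1 specify progenitors of the lateral and medial eminences, and Nkx2-1 specifies the medial eminence and preoptic area. Lhx8 and Isl1 act in postmitotic neurons, where Isl1 is used both by cholinergic neurons and by the striatal neurons that project to the substantia nigra. Ebf1, Ikzf1, Six3 and Zfp503 (also known as Nolz1) act as striatal projection neurons differentiate. The Tcf4 protein has a basic helix-loop-helix domain and binds E-boxes, the hexamer CANNTG, as a dimer.

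Libraries held between 22291940 and 29445788 counted reads. Of all genes, 15271 passed a filter on low counts and were tested together with edgeR's quasi-likelihood test, in which a gene passed at a Benjamini-Hochberg adjusted p under 0.05. The WT-labelled libraries stood apart from both other groups across the transcriptome: 52.8% of tested genes passed for KO versus WT, 45.9% for Het versus WT and 16.7% for KO versus Het. Both comparisons with WT use the same 3 WT-labelled libraries. Gene-level Tcf4 did not follow the labels, at 584 to 728 CPM (counts scaled to library size) in WT-labelled, 652 to 822 CPM in Het-labelled and 611 to 638 CPM in KO-labelled libraries, with a log2 fold change of -0.10 for KO versus WT (edgeR adjusted p = 0.36) and 0.12 for Het versus WT (edgeR adjusted p = 0.33), each with SE 0.09. Reads summed over the gene say nothing of the loss of some exons, and each direction below rests on the labels. KO replicate 3 held 2730 Xist and 2 Ddx3y reads, against at most 3 Xist and at least 794 Ddx3y reads in each other library. In bulk tissue, fewer cells of a type and less RNA per cell cannot be told apart.

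The genes lie on 7 chromosomes of build mm10 (GENCODE M21). Isl1 spans chr13:116298281-116309689 (minus strand), Lhx8 chr3:154306294-154330659 (minus), Nkx2-1 chr12:56531958-56536908 (minus), Gsx2 chr5:75075601-75077893 (plus) and Gsx1 chr5:147188696-147190947 (plus). Ikzf1 spans chr11:11685003-11772926 (plus), Ebf1 chr11:44617317-45008091 (plus), Zfp503 chr14:21983959-21989601 (minus) and Six3 chr17:85613608-85629302 (plus). Gsx1 and Gsx2, and likewise Ikzf1 and Ebf1, share a chromosome but are not neighbours. All 9 are annotated as protein-coding.

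Promoter sequence is shown for Isl1 and Lhx8, whose transcripts were nearly lost together, for Nkx2-1, and for Gsx1 and Gsx2. The Gsx genes overlapped WT in KO-labelled libraries but were lower on average in Het-labelled ones. The sequences run 5′ to 3′ along each gene's strand in the 250 bases before the RefSeq start (GRCm38.p6, the same sequence as mm10), in lower case with every E-box in capitals. Bases that GENCODE places in an exon of the gene itself are left out, which shortens Lhx8 to 151 bases and Isl1 to 249. The stretches are chr13:116309690-116309938 (minus), chr3:154330660-154330810 (minus), chr12:56536909-56537158 (minus), chr5:147188446-147188695 (plus) and chr5:75075351-75075600 (plus).
Isl1: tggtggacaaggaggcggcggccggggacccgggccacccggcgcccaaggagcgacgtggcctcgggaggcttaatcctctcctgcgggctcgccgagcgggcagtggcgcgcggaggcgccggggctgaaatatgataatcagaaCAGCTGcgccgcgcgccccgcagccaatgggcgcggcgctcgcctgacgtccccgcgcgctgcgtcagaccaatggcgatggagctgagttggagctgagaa
Lhx8: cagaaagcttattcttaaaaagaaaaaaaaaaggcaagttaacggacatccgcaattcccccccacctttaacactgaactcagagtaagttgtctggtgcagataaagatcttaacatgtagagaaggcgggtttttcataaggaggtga
Nkx2-1: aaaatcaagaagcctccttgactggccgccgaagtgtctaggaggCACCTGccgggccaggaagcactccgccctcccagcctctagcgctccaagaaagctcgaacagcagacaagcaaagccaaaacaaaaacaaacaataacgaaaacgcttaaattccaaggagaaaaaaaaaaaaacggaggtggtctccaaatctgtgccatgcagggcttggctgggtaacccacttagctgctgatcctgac
Gsx1: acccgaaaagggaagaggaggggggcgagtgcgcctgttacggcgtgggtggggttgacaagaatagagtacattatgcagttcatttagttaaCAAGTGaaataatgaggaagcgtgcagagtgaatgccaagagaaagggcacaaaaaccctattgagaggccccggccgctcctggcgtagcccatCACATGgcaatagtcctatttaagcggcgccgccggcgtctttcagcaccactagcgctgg
Gsx2: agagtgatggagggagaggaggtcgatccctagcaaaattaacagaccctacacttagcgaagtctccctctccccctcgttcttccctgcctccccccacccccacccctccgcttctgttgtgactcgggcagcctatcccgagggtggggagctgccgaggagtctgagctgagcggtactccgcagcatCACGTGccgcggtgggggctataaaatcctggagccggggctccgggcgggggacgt

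The Isl1 sequence held 1 E-box, CAGCTG, beginning 103 bases before the start. Nkx2-1 held CACCTG at 205 bases, Gsx2 held CACGTG at 57 bases and Gsx1 held CAAGTG at 156 and CACATG at 61 bases, while no CANNTG lay in the full Lhx8 window of 250 bases. RefSeq gives 11 such windows for the 9 genes, because Ebf1 and Ikzf1 have 2 each. Both windows of Ikzf1, the windows of Six3 and Zfp503 and 1 of the 2 windows of Ebf1 also held none. E-boxes were therefore present in 5 of 11 windows (45.45%), beside 66.22% of the 32851 mouse promoter windows of that length. CAGGTG, read on both strands, was in 17.22% of all windows, CAGCTG in 13.0% and CAGATG in 14.44%. CANNTG includes all 3 of these, and it reads the same on both strands. Of the 7 genes that were far below WT in both mutant-labelled groups, Isl1, Nkx2-1 and 1 window of Ebf1 held an E-box, and Lhx8, Ikzf1, Six3 and Zfp503 held none, while both Gsx genes held at least 1. A match describes these letters only.

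The levels of the 9 genes differed widely in the WT-labelled tissue before any genotype is compared. The deposited FPKM scale divides by a length fixed for each gene. On it the WT mean was highest for Ebf1 at 12.4 ± 1.29 FPKM (SD, n = 3), followed by Isl1 at 8.85 ± 1.29 FPKM. The libraries of these neighbours in the order did not overlap. Ikzf1 (6.10 ± 0.358 FPKM), Six3 (5.83 ± 0.904), Zfp503 (4.62 ± 0.854), Lhx8 (4.26 ± 2.30) and Nkx2-1 (3.33 ± 1.08) came next, and neighbours among these 5 overlapped. Gsx2 (0.907 ± 0.206 FPKM) and Gsx1 (0.763 ± 0.101 FPKM), the progenitor factors, were lowest, did not overlap Nkx2-1 and overlapped each other. This order depends on the length used: in CPM, the WT means of Zfp503 (19.9), Six3 (17.7) and Ikzf1 (13.5) were above Isl1 (12.3). The label of the tissue is dorsal, so all of these ventral factors were detected in RNA labelled as dorsal telencephalon. In the KO-labelled libraries the order of mean levels changed: Zfp503 (1.22 FPKM) and Ebf1 (1.21 FPKM) led, Gsx2 (0.979 FPKM) and Gsx1 (0.664 FPKM) followed, and Isl1 (0.0585 FPKM) and Lhx8 (0.0103 FPKM) were last.

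**Figure D1:**
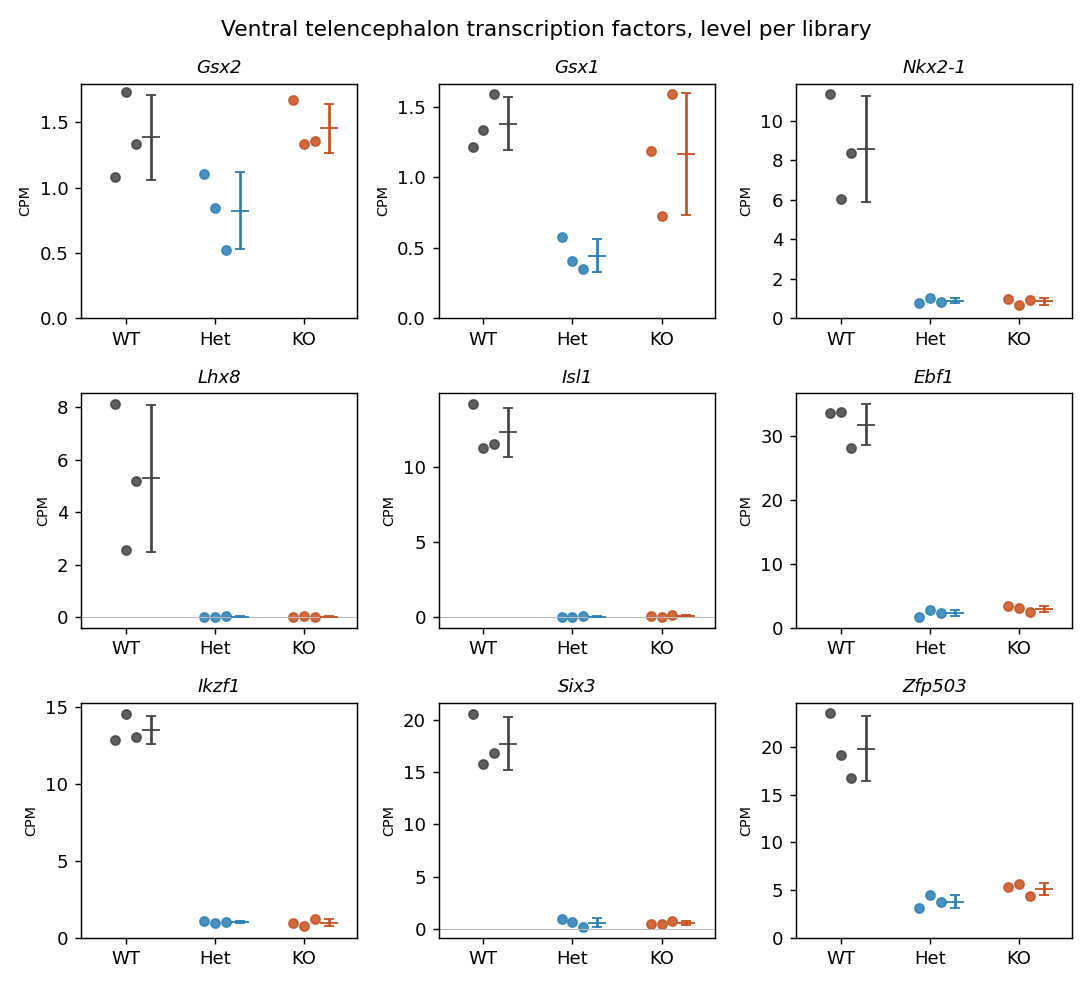
Level of each of the 9 genes in CPM, 1 panel per gene with its own linear axis from 0, in the libraries labelled WT, Het and KO. Points are single libraries and bars are means with SD (n = 3 per genotype). In 7 genes every Het- and KO-labelled library is below every WT-labelled one, while the KO-labelled libraries overlap WT for Gsx1 and Gsx2.

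Among the 9 genes, 7, all but Gsx1 and Gsx2, were lower in every KO-labelled and every Het-labelled library than in any WT-labelled library. Gsx1 and Gsx2 were at 85.7% and 105% of WT in KO-labelled libraries and lowest on average in Het-labelled ones, at 31.3% and 58.3%. For KO versus WT, 7 of 9 genes passed in the lower direction, a direction in which 26.3% of all tested genes passed, and their CPM did not overlap, as was so for 30.8% of tested genes. For Het versus WT, CPM lay below WT without overlap for 8 of 9, beside 26.8% of tested genes. In that comparison 9 of 9 passed in the lower direction, beside 23.4% of all tested genes. At least 8-fold lower fitted levels were seen for 6 of the 9 in each of these comparisons, beside 0.917% of tested genes for KO versus WT and 0.668% for Het versus WT. The genes were picked with these differences known, so nothing is read from these counts.

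Gsx2, a homeodomain factor of eminence progenitors, was counted at 1.08, 1.74 and 1.33 CPM in WT replicates 1 to 3, at 1.11, 0.846 and 0.519 CPM in Het replicates 1 to 3, and at 1.67, 1.33 and 1.36 CPM in KO replicates 1 to 3. The KO-labelled libraries lay within the WT range, and Het replicate 1 overlapped it. The log2 fold change was 0.07 (SE 0.27) for KO versus WT, -0.76 (SE 0.30) for Het versus WT and 0.84 (SE 0.29) for KO versus Het. Gsx2 was among the 9 genes counted above for Het versus WT in 8 of 18 alternative analyses. The difference rests on 94 reads in WT and 67 in Het libraries.

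Gsx1, the close relative of Gsx2, was at 1.22, 1.34 and 1.59 CPM in WT-labelled libraries, 0.574, 0.406 and 0.346 CPM in Het-labelled libraries and 1.19, 0.724 and 1.59 CPM in KO-labelled libraries. Every Het-labelled library was below every library of the other groups, while KO replicate 2 was the lowest of its group and KO replicate 3 equalled the highest WT library to 3 digits. The log2 fold change was -1.65 (SE 0.34) for Het versus WT, -0.23 (SE 0.29) for KO versus WT and 1.42 (SE 0.34) for KO versus Het. For KO versus Het, 1 of the 9 genes, Gsx1, was past the threshold in the higher direction, as were 8.3% of tested genes, and nothing is read from that count either.

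Nkx2-1, the factor that specifies the medial eminence and preoptic area, was at 11.3, 6.01 and 8.35 CPM in WT-labelled libraries. It was at 0.779, 1.02 and 0.830 CPM in Het-labelled and 0.976, 0.647 and 0.930 CPM in KO-labelled libraries. The mutant-labelled groups overlapped each other and lay far below the lowest WT library. The KO level was 10.04% of WT (log2 fold change -3.32, SE 0.24) and the Het level 10.3% (-3.28, SE 0.24), with a KO versus Het value of -0.04 (SE 0.30).

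Lhx8, a LIM homeodomain factor that acts after Nkx2-1 in the medial eminence and is needed for forebrain cholinergic neurons, was counted in 180, 57 and 121 reads of WT replicates 1 to 3. It was counted in 0, 0 and 1 reads of the Het-labelled and in 0, 1 and 0 reads of KO-labelled libraries. Its level, from summed counts, was 0.229% of WT in Het-labelled libraries (exact 95% interval 0.00577 to 1.28%) and 0.223% in KO-labelled libraries (0.00562 to 1.25%). These intervals cover counting error only.

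Isl1, a LIM homeodomain factor of cholinergic and striatonigral neurons, was counted in 315, 253 and 268 reads of WT-labelled libraries. It was counted in 0, 1 and 2 reads of Het-labelled libraries and 3, 0 and 4 reads of KO-labelled libraries. Summed, the Het level was 0.294% of WT (exact 95% interval 0.0605 to 0.861%) and the KO level 0.668% (0.268 to 1.38%), so the 2 intervals overlap. Isl1 and Lhx8 reached the filter of 0.379 CPM in the 3 WT-labelled libraries and in none of the other 6, so they were tested only because of their WT level. No difference between KO and Het was detectable at so few reads.

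Ebf1, a helix-loop-helix factor of differentiating striatonigral neurons, was at 33.6, 33.8 and 28.1 CPM in WT-labelled libraries, 1.76, 2.77 and 2.32 CPM in Het-labelled and 3.45, 3.08 and 2.52 CPM in KO-labelled libraries. The KO level was 9.47% of WT and the Het level 7.29%, with log2 fold changes of -3.40 (SE 0.15) and -3.79 (SE 0.15). KO replicates 1 and 2 lay above all Het-labelled ones, and the KO versus Het value of 0.39 (SE 0.17) did not pass. Ebf1 is also expressed outside neurons, including in pericytes, and the 10 pericyte genes summed to 188.5 to 197 CPM in WT-labelled, 235 to 246 in Het-labelled and 238 to 249 in KO-labelled libraries, with none at 0 in a whole group. Rgs5 alone made up 38.2 to 46.7, 94.5 to 106 and 100.2 to 115 CPM of these sums, while Notch3 (-0.51, SE 0.09) and Cspg4 (-0.32, SE 0.08) passed lower for KO versus WT, 3 genes passed higher and 5 did not pass. Of all tested genes, 26.3% passed lower and 26.5% higher for KO versus WT, and nothing is read from the pericyte counts. The part of pericytes in the Ebf1 values was not tested.

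Ikzf1, the zinc finger factor Ikaros, was at 12.9, 14.6 and 13.1 CPM in WT-labelled libraries, 1.07, 0.981 and 1.003 CPM in Het-labelled and 0.941, 0.762 and 1.23 CPM in KO-labelled libraries. Its KO level was 7.31% and its Het level 7.51% of WT (log2 fold changes -3.77 and -3.73, SE 0.17 each), the 2 groups overlapping. Ikzf1 is known both from striatal neurons that make enkephalin and from blood cells and microglia. The 10 microglia genes summed to 106 to 122 CPM in WT-labelled, 59.5 to 65.7 CPM in Het-labelled and 66.9 to 71.5 CPM in KO-labelled libraries. None was at 0 in a whole group. For KO versus WT 6 of 10 passed lower and for Het versus WT 7 of 10, beside 26.3% and 23.4% of all tested genes. The 10 lymphoid and erythroid genes summed to 4.52 to 5.88 CPM in WT-labelled libraries, 3.60 to 4.76 CPM in Het-labelled and 4.32 to 4.64 CPM in KO-labelled libraries. Cd8a and Epb42 were at 0 in every KO-labelled library. Of the 2 that could be tested, Alas2 passed lower for Het versus WT, and this call was lost without WT replicate 2 or 3 or Het replicate 2 or 3. The part of such cells in the Ikzf1 values was not tested.

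Six3, a homeodomain factor needed for striatopallidal neurons, was at 20.5, 15.8 and 16.8 CPM in WT-labelled libraries, 0.984, 0.711 and 0.207 CPM in Het-labelled and 0.523, 0.457 and 0.764 CPM in KO-labelled libraries. Het replicate 3 was the lowest library and no mutant-labelled library came near the WT range. The level was 3.32% of WT in KO-labelled (log2 fold change -4.91, SE 0.31) and 3.48% in Het-labelled libraries (-4.83, SE 0.31). The long non-coding gene Six3os1 lies on the opposite strand and shares 106 exon bases with Six3, 1.95% of the exon bases of Six3. Sources used here do not state whether counting used strand, so reads in the shared bases cannot be assigned. Six3os1, looked up after its values were seen, was counted in 140, 98 and 141 reads of the WT-labelled, 17, 9 and 11 reads of the Het-labelled and 16, 8 and 7 reads of KO-labelled libraries.

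Zfp503, a zinc finger repressor of striatal neurons, was at 23.6, 19.2 and 16.8 CPM in WT-labelled libraries, 3.16, 4.47 and 3.70 CPM in Het-labelled and 5.30, 5.67 and 4.42 CPM in KO-labelled libraries. It kept the largest share of its WT level among the 7 genes, at 25.8% in KO-labelled (log2 fold change -1.95, SE 0.15) and 19.3% in Het-labelled libraries (-2.39, SE 0.16). The KO versus Het value was 0.43 (SE 0.16), and KO replicate 3 overlapped the Het-labelled libraries.

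**Figure D2:**
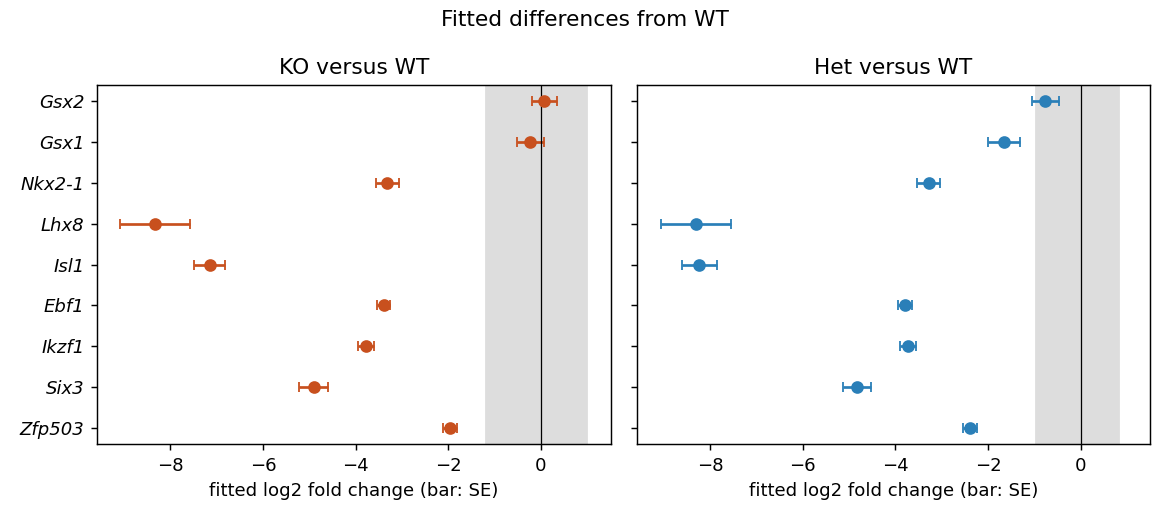
Log2 fold change of each gene, with SE bars, for KO versus WT (left) and Het versus WT (right), n = 3 libraries per genotype. Grey bands span the 5th to 95th percentile of all 15271 tested genes, and the values of Lhx8 and Isl1 rest on 1 to 7 reads in the mutant-labelled groups. For KO versus WT Gsx1 and Gsx2 lie within the band, and the other 7 genes lie below it.

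Set beside all tested genes, whose median log2 fold change was 0.009 for KO versus WT with a 5th to 95th percentile range of -1.18 to 1.004, the 7 genes spanned -1.95 to -8.32, the latter being the fitted value of Lhx8, which depends on the small count added in fitting. For Het versus WT the median of all genes was 0.013 and the range -0.96 to 0.83. KO versus Het values were -0.04 (SE 0.30) for Nkx2-1, -0.04 (SE 0.21) for Ikzf1 and -0.08 (SE 0.43) for Six3, where the median of all genes was 0.004. No gene of the 9 was lower in every KO-labelled library than in every Het-labelled one, a pattern held by 16.3% of tested genes.

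Other factors of the ventral lineages gave different counts from list to list. These lists and those that follow were chosen with earlier results known, so their counts and adjusted p-values are descriptive only. The counts below stand beside 26.3% of tested genes lower and 26.5% higher for KO versus WT, 23.4% and 22.5% for Het versus WT, and 8.44% and 8.3% for KO versus Het. In eminence progenitors, 8 of 10 listed factors could be tested; for KO versus WT 4 were lower and 1 was higher, with a median log2 fold change of -0.20. Dlx2, which acts with Dlx1 in migrating GABAergic cells, fell by 0.46 on the log2 scale for KO versus WT (SE 0.09, adjusted p = 0.00032). Dlx1 was at 130 ± 2.19 CPM in WT-labelled and 126 ± 4.17 CPM in KO-labelled libraries and did not pass (log2 fold change -0.05, SE 0.05, adjusted p = 0.44). Olig1, a factor of the oligodendrocyte lineage, fell by 1.13 for KO versus WT (SE 0.07) and by 1.23 for Het versus WT (SE 0.07). The 4 lower factors for KO versus WT were Olig1, Nkx2-2, Dlx2 and Olig2. Olig1 and Olig2 are also in the list of oligodendrocyte precursor genes, so the 2 lists are not separate and a difference by stage was not tested. For Het versus WT 5 of the 8 progenitor factors were lower and 1 was higher (median -0.54), and for KO versus Het 3 were higher and 0 lower (median 0.30).

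Among 18 factors of postmitotic striatal neurons other than the 9 genes, 16 were lower and 1 was higher for KO versus WT (median log2 fold change -1.13), and 16 were lower for Het versus WT (median -1.28). Rxrg, a retinoid receptor of striatal neurons, fell from 51.5 ± 3.70 CPM to 2.51 ± 0.468 CPM in KO-labelled and 2.61 ± 0.280 CPM in Het-labelled libraries (log2 fold changes -4.35 and -4.29, SE 0.12 each). Rarb, a retinoic acid receptor, fell by 3.60 for KO versus WT (SE 0.14) and by 3.84 for Het versus WT (SE 0.14). Zfhx3 fell by 3.06 (SE 0.20) and 2.91 (SE 0.20), and Dlx6 by 2.49 (SE 0.14) and 2.58 (SE 0.14). Meis2, which is also made by cortical progenitors, went the other way in the KO-labelled tissue: it was at 340 ± 5.96 CPM in WT-labelled, 249 ± 12.1 CPM in Het-labelled and 386 ± 6.06 CPM in KO-labelled libraries, passing higher for KO versus WT (0.18, SE 0.05, adjusted p = 0.0072) and for KO versus Het (0.63, SE 0.05, adjusted p = 3.2e-07). For KO versus Het 2 of the 18 were lower and 1 was higher.

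Factors of the medial eminence and septum passed in both directions. Of 14 medial eminence and septal factors, 5 were lower and 3 higher for KO versus WT (median -0.10), and 2 were lower and 4 higher for Het versus WT (median 0.05). Of the latter 6, 3 passed without WT replicate 3, Het replicate 1 or Het replicate 3. Lhx6, the interneuron factor known to act directly after Nkx2-1, was at 89.6 ± 6.06 CPM in WT-labelled, 114 ± 9.56 CPM in Het-labelled and 114 ± 2.24 CPM in KO-labelled libraries, a rise of 0.35 for each (SE 0.06, adjusted p = 0.00018 for KO and 0.00029 for Het). Gbx1, a homeobox factor of basal forebrain cholinergic neurons, was counted at 3.39, 0.713 and 2.41 CPM in WT-labelled libraries, and in 7 reads over the Het-labelled and 3 reads over the KO-labelled libraries, which is 1.63% of WT for KO (exact 95% interval 0.332 to 4.85%). For KO versus Het 3 of the 14 were lower and 2 higher.

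Most genes of cholinergic neurons fell. Their list was also chosen with earlier results known, so the adjusted p-values given here are descriptive only. Of 7 tested cholinergic genes, 6 were lower for KO versus WT (median -2.64), while 6 were lower and 1 higher for Het versus WT (median -2.30). Slc5a7, the choline transporter, fell from 2.47 ± 1.20 CPM to 0.227 ± 0.071 CPM in KO-labelled libraries (log2 fold change -3.43, SE 0.43, adjusted p = 5.9e-06). Slc18a3, the vesicular acetylcholine transporter, fell from 2.62 ± 0.468 CPM to 0.515 ± 0.0542 CPM (-2.33, SE 0.26, adjusted p = 1.3e-06). Ngfr, the low-affinity neurotrophin receptor, which several other cell types make, was higher in Het-labelled libraries (1.01, SE 0.29, adjusted p = 0.025) and did not pass for KO versus WT (-0.08, SE 0.30).

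Most genes of striatal projection neurons and of GABAergic neurons fell. Of 20 striatal projection neuron genes, 18 were lower for KO versus WT (median -1.17) and 19 for Het versus WT (median -1.14), with none higher, and they summed to 1742 to 1784 CPM in WT-labelled, 950 to 975 CPM in Het-labelled and 908 to 968 CPM in KO-labelled libraries. Drd2, the dopamine receptor of striatopallidal neurons, fell by 3.77 for KO versus WT (SE 0.21) and by 3.40 for Het versus WT (SE 0.20). Penk, the enkephalin precursor, fell by 3.42 (SE 0.18) and 2.89 (SE 0.17), and Tac1, the substance P precursor of striatonigral neurons, by 2.98 (SE 0.34) and 3.77 (SE 0.37). Drd2, Penk and Tac1 were named for having some of the largest changes of the list. Drd1, another dopamine receptor of the list, was at 11.8 ± 2.33 CPM in WT-labelled, 7.65 ± 2.50 CPM in Het-labelled and 8.73 ± 0.964 CPM in KO-labelled libraries. Of 10 GABAergic neuron genes, 8 were lower for KO versus WT (median -0.99) and 7 for Het versus WT (median -0.82). Gad1, which makes GABA, fell by 1.08 (SE 0.14), and Slc32a1, the vesicular GABA transporter, by 1.44 (SE 0.09) for KO versus WT.

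**Figure D3:**
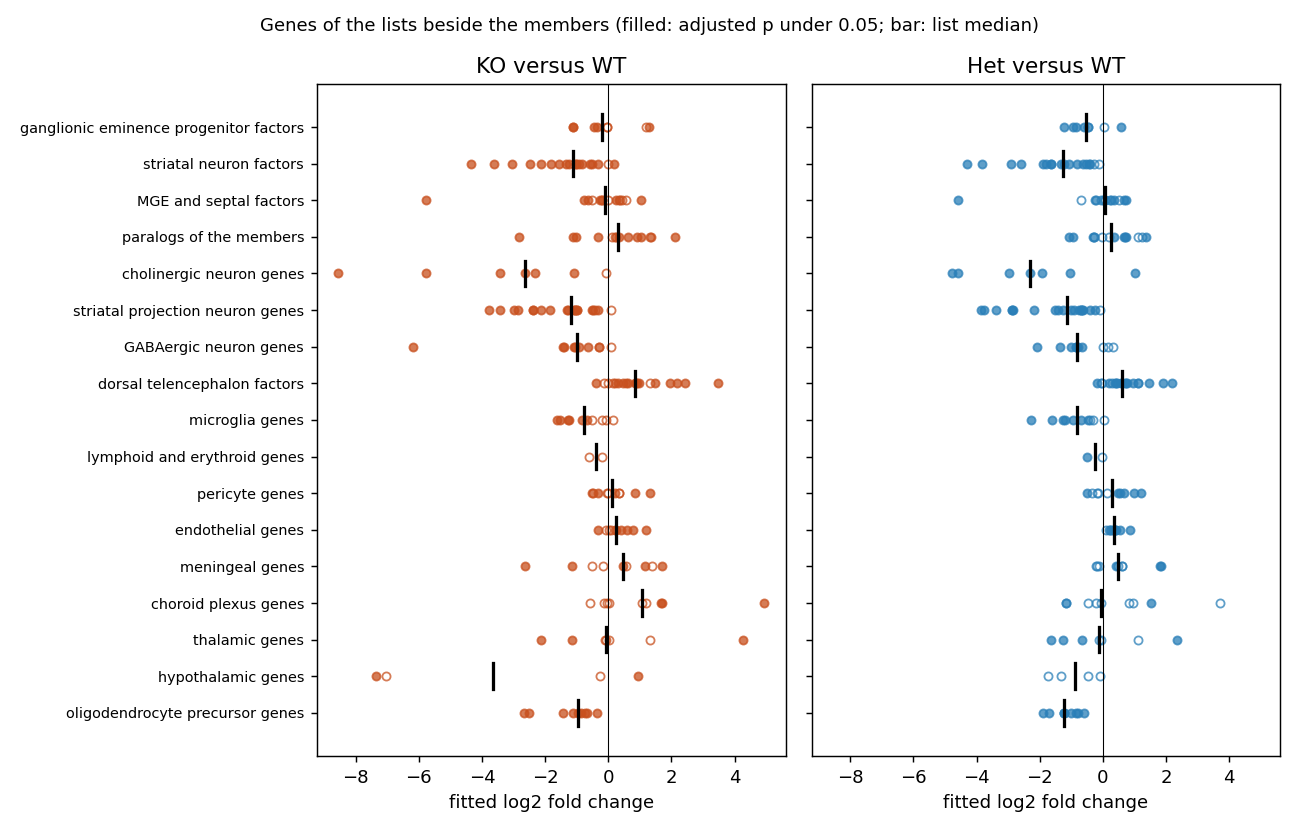
Fitted log2 fold changes of every tested gene of 17 gene lists, for KO versus WT (left) and Het versus WT (right), n = 3 libraries per genotype. Each point is 1 gene, filled where its adjusted p is under 0.05, and the bar is the list's median, with genes at 0 reads in a group at their fitted value. The striatal lists lie mostly below 0 and the dorsal factors mostly above it.

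Most dorsal telencephalon factors were higher in the mutant-labelled groups than in WT. Of 19 tested, 14 were higher and 1 was lower for KO versus WT (median 0.85) and likewise 14 and 1 for Het versus WT (median 0.59), and for KO versus Het 7 were higher and 2 lower. Neurog2, the proneural factor of cortical progenitors, rose from 5.59 ± 0.911 CPM to 25.7 ± 3.17 CPM in Het-labelled and 61.8 ± 1.90 CPM in KO-labelled libraries. Eomes, the intermediate progenitor factor, rose from 15.9 ± 3.40 CPM to 59.7 ± 3.89 and 86.6 ± 8.11 CPM.

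Relatives of the 9 genes by family did not share one direction. Of 14 tested paralogs, 4 were lower and 7 higher for KO versus WT (median 0.30), and 3 were lower and 5 higher for Het versus WT (median 0.27). Without WT replicate 3 the 8 that passed for Het versus WT became 5. Ebf2 fell by 2.82 for KO versus WT (SE 0.45, adjusted p = 5.5e-05) while Ebf3 rose by 0.61 (SE 0.14, adjusted p = 0.0012). Lhx1 rose by 1.36 (SE 0.25, adjusted p = 0.0002) and Lhx2, the cortical selector, by 0.90 (SE 0.08, adjusted p = 6.1e-07). Ikzf2, a relative of Ikzf1 also used in striatal neurons, fell by 1.01 (SE 0.19, adjusted p = 0.0003). Six6 was at 0 in every library.

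Nkx2-1, Isl1 and Six3 are also made in the hypothalamus, and the labels do not give the borders of the dissection. Of 12 hypothalamic genes 4 could be tested, 1 passing lower and 1 higher for KO versus WT (median -3.65 as fitted and -2.36 with the gene at 0 reads at its bound), and the 12 summed to 3.21 to 8.90 CPM in WT-labelled, 2.34 to 6.23 CPM in Het-labelled and 4.28 to 5.33 CPM in KO-labelled libraries. Nkx2-4, Rax, Hmx2, Hmx3 and Six6 were at 0 in every WT-labelled library. Otp, a factor of the hypothalamus and amygdala, was at 3.30, 0.0891 and 3.10 CPM in WT replicates 1 to 3, and Sim1, often made in the same cells, at 1.40, 0.0891 and 0.861 CPM. In KO-labelled libraries Otp had 1 read in all and Sim1 had 0, at least 22.2-fold below WT against a floor of 3 counts over the group. The 10 thalamic genes, of which 7 could be tested, summed to 90.6 to 131 CPM in WT-labelled, 59.8 to 86.4 CPM in Het-labelled and 75.2 to 78.2 CPM in KO-labelled libraries, with 2 lower and 1 higher for KO versus WT. The 2 lower were Foxp2 (-2.12, SE 0.15), also counted among the striatal neuron factors, and Tcf7l2 (-1.16, SE 0.42). The 1 higher was Irx3 (4.26, SE 0.68), which had 3 reads over the WT-labelled libraries. Without WT replicate 2 the number of thalamic genes that passed went from 3 to 5. Gbx2 and Shox2 were at 0 in every KO-labelled library. The part of the plane of dissection in the genotype differences was not tested.

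The 3 WT-labelled libraries differed among themselves for several gene groups. Lhx8 was at 154%, 48.0% and 98.4% of its WT mean in replicates 1 to 3, and Nkx2-1 at 132%, 70.2% and 97.5%. Gbx1 (156%, 32.8% and 111%), Slc5a7 (152%, 55.9% and 92.3%) and Slc10a4 (127%, 72.6% and 100.4%), cholinergic genes of the same region, had the same order of libraries. Replicate 1 was highest and replicate 2 lowest for 4 of the 9 factors and 5 of 7 cholinergic genes, beside 17.6% of 14674 genes with at least 30 WT reads. The same order was held by 6 of 7 thalamic, 6 of 10 GABAergic and 6 of 10 microglia genes. Ebf1 (106%, 106% and 88.4%) and Ikzf1 (95.3%, 108% and 96.9%), striatal factors, and Lhx6 (102%, 92.4% and 105%) varied little. WT replicate 2 also held 1926 Fos reads, where WT replicates 1 and 3 held 84 and 95. Lhx8 had 57 reads in WT replicate 2 and 2 reads in all over the 6 mutant-labelled libraries. The cause of the spread among WT-labelled libraries, and its part in the genotype differences, was not tested.

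**Figure D4:**
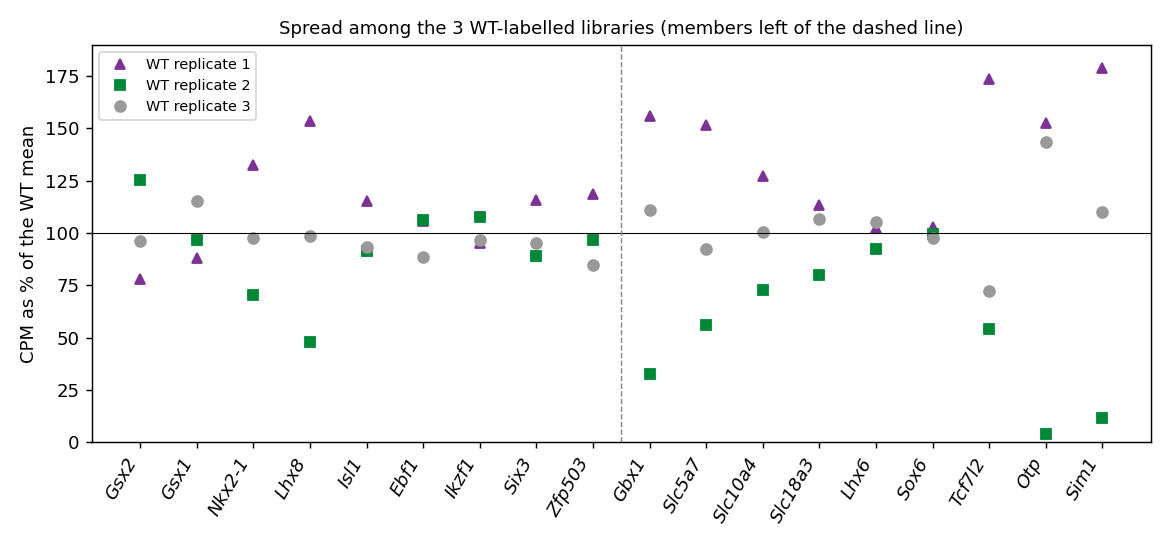
Level of selected genes in each WT-labelled library as percent of the WT mean (linear axis from 0, line at 100%), with the 9 factors left of the dashed line and genes of the cholinergic, interneuron, thalamic and hypothalamic lists, chosen after their values were seen, right of it. Replicate 2 is low for Lhx8, Nkx2-1, Gbx1, Otp and Sim1. Ebf1 and Ikzf1 vary less, and Isl1, Six3 and Zfp503 are highest in replicate 1.

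Among the 9 genes, profiles over the 9 libraries were compared by the root mean square difference of centred log2 CPM, in which 0 means the same shape. The closest pairs were Ebf1 with Ikzf1 at 0.363, Ikzf1 with Nkx2-1 at 0.380, Ebf1 with Nkx2-1 at 0.400 and Gsx1 with Gsx2 at 0.446, and the farthest pair was Gsx2 with Isl1 at 3.05. Isl1 and Lhx8 were 0.765 apart. Over all genes with a mean log2 CPM of at least 1, the nearest profile to Ebf1 was Rarb (0.234), the nearest to Nkx2-1 was Adora2a (0.291), an adenosine receptor of striatopallidal neurons, and Drd2 was also near Ikzf1 (0.313). Zfp503 was nearest to Hebp1 (0.230) and Cxcl14 (0.240), Gsx1 to Apln (0.250) and Gsx2 to Pgam2 (0.153). The nearest to Isl1 and Lhx8 was Vcp-rs (0.438 and 0.652), and the nearest to Six3 and Ikzf1 were Rpl3-ps1 (0.505) and Gm6472 (0.201), gene copies of which 89.5%, 97.4% and 84.2% of 31-base words also occur in transcripts of other genes, so reads may be split with those. Of the 9 factors' own words, at most 3.95% (Six3) occur in other genes. Vcp-rs was at 136 to 149 CPM in WT-labelled and 0.82 to 1.69 CPM in Het- and KO-labelled libraries. Rpl3-ps1 was at 130 to 143 and 4.98 to 7.68 CPM, and Gm6472 at 41.1 to 51.8 and 3.19 to 3.81 CPM. In these gene copies, too, every Het- and KO-labelled library was below every WT-labelled one. The cause, and whether it also acts on the factors, was not tested.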

How the data were processed

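RNA from the dorsal telencephalon was sequenced in 9 libraries. The authors deposited raw counts per gene, as whole numbers, and FPKM values; per the submitters' processing notes the build was mm10, and HTSeq 0.6.1, DESeq 1.10.1, TopHat2 2.0.9 and Bowtie2 2.0.6 are named with no role. Each deposited FPKM value is the gene's count over the library total, divided by a length fixed for each gene. Which length the authors used was not checked. Symbols and positions came from GENCODE M21 (40254 of 41128 genes), promoters from RefSeq (GRCm38.p6). Counts were fitted with edgeR 4.0.16 in R 4.3.3: filterByExpr (minimum count 10, minimum total 15; 15271 genes with 99.9% of reads kept), TMM factors, a robust quasi-likelihood fit with 1 coefficient per genotype over all libraries (6 residual degrees of freedom), Benjamini-Hochberg adjustment over all tested genes. CPM uses TMM-scaled totals. SE is the size of the log2 fold change divided by the square root of F. Intervals of summed counts are exact (Clopper-Pearson) and cover counting error.

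The 9 genes and the 17 gene lists (196 genes, of which 195 were in the table and 168 tested) were chosen with earlier results of these data known. Named genes were the 9 factors, Tcf4, up to 5 passing genes of largest change per list and comparison (all genes in lists with under 5 tested), and the 3 nearest profiles of each factor (log2 CPM with prior count 2). Dlx1, Drd1, Gbx2, Shox2, Six6, Ngfr for KO versus WT, Six3os1, Xist, Ddx3y and Fos were named after their values were seen. Which other genes to print was also chosen then. Genes at 0 in a group are given against a floor of 3 counts. The alternatives were RLE and upper-quartile factors, no filter, a filter of 1 CPM in 3 libraries, DESeq2 1.42.0, limma 3.58.1 on log2(FPKM + 1) and log2(FPKM + 0.1), a replicate block, a fit of only the genotypes compared and leaving out each library. The fit was tested on simulated counts. No 2 libraries of the same genotype agreed within sampling noise. KO replicates 1 and 2 were the closest, with a chi-square of 2.79 per gene, and the other such pairs had 7.37 to 19.4. Pairs of libraries from different genotypes were not checked in this way. A planned comparison of protein sequences is not used here. Some listed genes are not reported here.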

Additional observations from a re-analysis of the deposited data

How the results depend on the processing

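The 9 factors were chosen with their differences known, so neither their direction nor their calls under the 18 alternatives are a sign of stability, and Lhx8 and Isl1 reached the filter through WT alone. Gsx2 lost its Het versus WT call under upper-quartile factors, DESeq2, only the genotypes compared, and without WT replicate 2 or 3, Het replicate 2 or 3, or any 1 KO replicate. For KO versus Het, factors that passed numbered 1 in the main analysis, 3 without a filter (Gsx1, Gsx2 and Zfp503) and 2 with limma on log2(FPKM + 1), and 1 to 2 when 1 library was left out, Gsx2 being the second without Het replicate 1. Fitted values of sparse genes depended on the scale: Lhx8 for KO versus WT ran from -10.11 to -2.28 and Isl1 from -7.70 to -3.21, smallest in size with limma on log2(FPKM + 1), where a pseudocount of 1 is large beside their levels. Striatal neuron factors that passed for KO versus Het numbered 3, and 6 without a filter. Leaving out 1 library gave 1 to 4 of them for KO versus Het (1 without KO replicate 1 or 2), 3 to 6 medial eminence and septal factors for Het versus WT (6 with all libraries; 3 without WT replicate 3, Het replicate 1 or Het replicate 3) and 3 to 5 for KO versus Het (5 with all; 3 without Het replicate 1, Het replicate 3 or KO replicate 1), 31 to 53 listed genes for KO versus Het (49 with all; 31 without KO replicate 1), and 1432 to 2561 of all genes for KO versus Het (2556 with all; 1467 without KO replicate 1, 1432 without KO replicate 2). The cause was not tested. Libraries that share a replicate number did not deviate together (correlations -0.11 to 0.08 over 9 pairs, none above 0.1), and a fit with a replicate block gave 7775, 6641 and 2166 passing genes for KO versus WT, Het versus WT and KO versus Het, against 8061, 7011 and 2556 without it, and 7, 9 and 1 of the 9 factors, as without it. Depth limits Lhx8 and Isl1, which had 1 to 7 reads in each mutant-labelled group, and Gsx1 and Gsx2, which had at most 48 reads in any library.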

Other observations

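Oligodendrocyte precursors, of which an early wave arises in the ventral telencephalon, had lower marker levels in both mutant-labelled groups. All 9 tested genes of this list were lower for KO versus WT (median log2 fold change -0.96) and for Het versus WT (median -1.22). Of all tested genes, 26.3% and 23.4% were lower in these comparisons. The 9 genes summed to 430 to 462 CPM in WT-labelled, 216 to 224 CPM in Het-labelled and 211 to 247 CPM in KO-labelled libraries. Olig1 and Olig2 are also in the list of eminence progenitor factors. Gpr17, a receptor of committed precursors, fell by 2.68 for KO versus WT (SE 0.17, edgeR adjusted p = 5.1e-08) and by 0.96 for KO versus Het (SE 0.17, adjusted p = 0.0024). Olig2 (0.51, SE 0.08) and Cnp (0.30, SE 0.08) passed higher for KO versus Het, where 1 of the 9 genes was lower, 2 were higher and 6 did not pass. Of all tested genes, 8.44% were lower and 8.3% higher for KO versus Het. Sox10, the lineage factor, fell by 0.96 for KO versus WT (SE 0.12, adjusted p = 4.1e-06) and by 1.22 for Het versus WT (SE 0.12, adjusted p = 6e-07). Vip, a neuropeptide of caudal eminence interneurons, was at 1.19 ± 0.287 CPM in WT-labelled, 0.269 ± 0.13 CPM in Het-labelled libraries and in 1 read of the 3 KO-labelled libraries, which is 0.985% of WT (exact 95% interval 0.0246 to 5.64%).

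Vessel and barrier genes passed in both directions, as did tested genes at large. Their lists, like that of oligodendrocyte precursors, were chosen with earlier results known, so the adjusted p-values are descriptive only. The counts stand beside 26.3% of all tested genes lower and 26.5% higher for KO versus WT. For Het versus WT the shares were 23.4% and 22.5%. Nothing is read from counts near these shares. Of 10 endothelial genes 5 were higher and 1 lower for KO versus WT (median 0.23), and 8 were higher for Het versus WT (median 0.35). Of 10 pericyte genes 3 were higher and 2 lower for KO versus WT (median 0.10), Rgs5 rising by 1.32 (SE 0.08, edgeR adjusted p = 1.2e-09). Of 9 tested meningeal genes 3 were higher and 2 lower (median 0.46), Igf2 falling by 1.14 (SE 0.14, adjusted p = 3.5e-05). Of 9 tested choroid plexus genes 3 were higher (median 1.08), a count of 1 without WT replicate 2 or KO replicate 1, and their sum ran from 6.10 to 9.75 CPM in WT-labelled, 5.001 to 22.5 CPM in Het-labelled and 13.4 to 34.3 CPM in KO-labelled libraries.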
